A study of Mus musculus with 28 samples.

Results

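The comparison set out here is that of the CLA diet with the control diet on day 17, the last day sampled, in the retroperitoneal fat pad of mice. It rests on 4 of the 28 arrays of the series, 2 of CLA mice and 2 of control mice, chosen by their labelled diet and day and by no measured value. The CLA mice ate a diet that held conjugated linoleic acid (CLA), as its trans-10 cis-12 isomer, at 0.5% for 17 days. Their strain is spelled C57BK/6J by the submitters. The control mice, of the same strain, ate the control diet for 17 days. The labels give an age of 9 weeks for both groups and no transgene or other agent. The 6 control arrays of days 4, 7 and 10 served as a further set of controls. Both fat pads of 10 mice were pooled and total RNA was hybridised to Affymetrix oligonucleotide arrays. Whether replicate arrays came from different pools is not clear from the labels, so the p-values may measure technical spread only.

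The trans-10 cis-12 isomer of CLA is a fatty acid known to lower body fat in mice. White adipocytes take up glucose and fatty acids under the control of insulin, make triglyceride and coat it with perilipins, and release it again by lipolysis. Fat pads also hold macrophages, mast cells, fibroblast-like progenitors and endothelium, and macrophages that take up lipid carry a known set of lysosomal and lipid-handling genes. The question put to these arrays is which transcripts of the fat pad differ after the longest feeding.

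Values are log2 expression values, so a difference of 1 is 2-fold, and each difference is CLA minus control with the standard error (SE) of a limma model fitted over all 28 arrays. A gene was called at a Benjamini-Hochberg adjusted p under 0.05 over the 18193 genes tested. Across genes, the correlation of the arrays within a group was 0.9951 for CLA and 0.9927 for control on day 17. Precision is limited by there being 2 arrays in each group. The tissue label was checked against adipocyte genes. Adipoq, the adipocyte hormone adiponectin, stood at 12.88 on both CLA arrays, against 13.66 and 13.75 on the control arrays. Fabp4, the fatty acid binding protein of adipocytes, stood at 13.81 and 13.82 on the CLA arrays, against 13.96 and 13.88 on the control arrays. Both are among the high values of the table, whose range is 1.90 to 14.18.

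On day 17, 2090 genes were called higher and 1598 lower in CLA, which are 11.5% and 8.78% of the genes tested, or 20.3% together. The CLA and control arrays did not overlap for 63.5% of all genes, with CLA above control for 30.1% and below it for 33.4%. A difference of 2-fold or more was seen for 2059 genes, 1254 higher and 805 lower, of which 1954 were called. Of the 1598 falls, 1377 (86.2%) were also called lower when the same CLA arrays were set against the 6 control arrays of days 4, 7 and 10, where 10.7% of all genes were called lower. A further 214 falls were not called against these earlier controls, and 7 were called higher. Of the 2090 rises, 1972 (94.4%) were also called higher, against 13.8% of all genes, and none was called lower. The 2 comparisons share the CLA arrays. The count of 3688 calls was 2352 without CLA replicate 1. Centring every array on its median moved the median of all genes from -0.04 to -0.14 and the split of the calls to 1779 higher and 2313 lower. For that reason small differences near 0 are given no direction below.

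**Figure D1:**
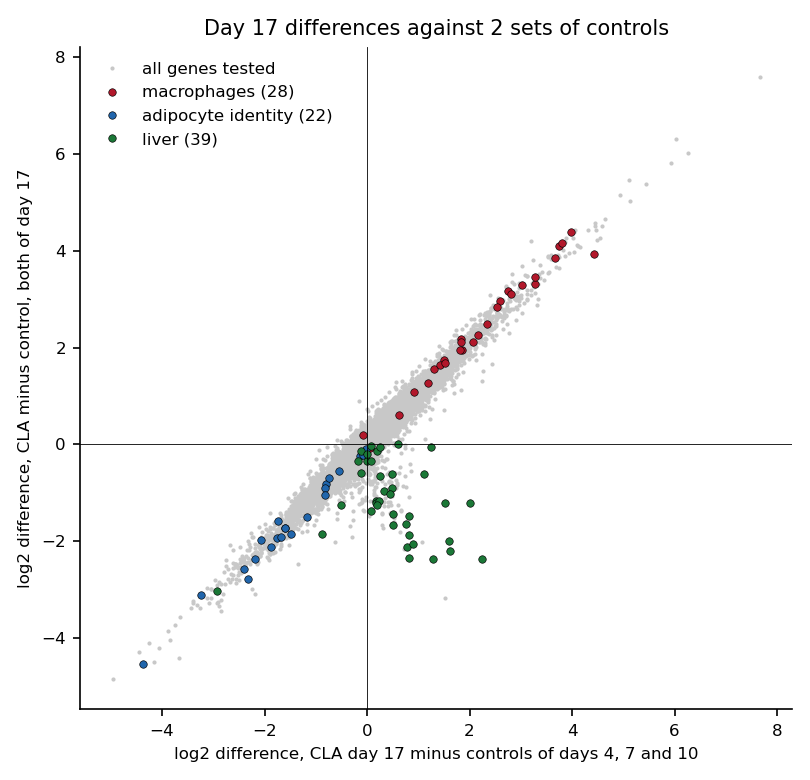
Each point is a gene: the y axis is the log2 difference of CLA minus control on day 17, and the x axis the log2 difference of the same CLA arrays minus the controls of days 4, 7 and 10. Most of the macrophage list (28 genes) lies at the upper right and most of the adipocyte list (22 genes) at the lower left of the grey points of all 18193 genes, while most of the 39 liver genes lie below 0 on the y axis and at or above 0 on the x axis.

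Many transcripts of liver were called lower against the day 17 controls but not against the earlier ones. Of 39 liver genes measured, 21 were called lower in CLA against the day 17 controls, with a median difference of -1.20 beside -0.04 over all genes. Against the earlier controls 2 of the 39 were called lower and 8 higher, with a median of 0.45 beside -0.03 over all genes. The day 17 control arrays themselves had 56 genes (0.308%) called against the earlier controls, of which 55 were higher (0.302%), and 24 of these 55 are on the liver list. Of the 55, 42 were called lower in CLA on day 17. Only Clec4b1, a lectin of myeloid cells, was called lower in the day 17 controls, where it fell by 0.99 on the log2 scale (0.0055% of genes).

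Alb, the serum protein albumin, stood at 6.74 and 8.81 on the CLA arrays and at 10.93 and 9.31 on the day 17 control arrays, with the 6 earlier controls between 6.30 and 7.46. Fabp1, the fatty acid binding protein of liver, stood at 3.64 and 5.90 on the CLA arrays and at 8.43 and 7.43 on the day 17 control arrays, with the earlier controls between 3.04 and 3.79. For both genes CLA replicate 1 was lowest of the 4 day 17 arrays and control replicate 1 highest, and CLA replicate 2 lay above all 6 earlier controls. Fabp1 thus differed by -3.16 ± 0.54 from the day 17 controls (SE, adjusted p = 0.000247) and by 1.53 from the earlier controls (adjusted p = 0.0142). The other genes called lower against the day 17 controls and higher against the earlier ones were Apoa2 and Apoh, which encode apolipoproteins, Bhmt, a methyltransferase of methionine metabolism, Fbp1, an enzyme of gluconeogenesis, and the protease inhibitors Serpina1b and Serpina1c, whose near-identical sequences the probes may not separate. Fga, a chain of fibrinogen, and Ambp, a plasma protein precursor, fell by 2.37 and 2.12 against the day 17 controls and were not called against the earlier ones. Without control replicate 1 the liver falls numbered 6 in place of 21, and without CLA replicate 1 they numbered 7. The 8 liver rises against the earlier controls numbered 13 without CLA replicate 1 and 1 without CLA replicate 2.

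Against both sets of controls 2 liver-list genes fell. Cyp2e1, a cytochrome P450 that is also expressed in fat, stood at 9.97 and 10.22 on the CLA arrays, against 13.17 and 13.07 on the day 17 control arrays and 12.88 to 13.18 on the earlier control arrays. Its groups did not overlap, and it fell by 3.02 ± 0.16 against the day 17 controls (SE, adjusted p = 2.47e-10). Apoc3, an apolipoprotein of triglyceride-rich particles, fell by 1.85 against the day 17 controls and by 0.87 against the earlier ones.

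Skeletal muscle genes followed the same order of arrays without a call. Ckm, the muscle creatine kinase, stood at 8.11 and 9.62 on the CLA arrays and at 10.79 and 9.78 on the day 17 control arrays, with the earlier controls between 7.58 and 9.07. Of 18 muscle genes limma called 0 on day 17, with 2 at an unadjusted p under 0.05, and their median difference was -1.09. Against the earlier controls that median was 0.38, with 1 rise called. Both muscle medians rest on single arrays: the day 17 one was -0.38 without CLA replicate 1 and -0.68 without control replicate 1, and the one against the earlier controls was 1.12 without CLA replicate 1 and turned to -0.32 without CLA replicate 2. The list medians were 7.52 and 9.14 on the CLA arrays and 10.2 and 9.25 on the day 17 control arrays for muscle. The liver medians were 3.77 and 4.52 on the CLA arrays and 5.80 and 4.83 on the day 17 control arrays. Of the other neighbouring tissues, 1 of 11 kidney, 1 of 12 adrenal gland, 1 of 10 exocrine pancreas and 0 of 9 gut genes were called lower by limma, with 2 gut genes at an unadjusted p under 0.05. The share of all genes called lower was 8.78%. The part that liver or muscle RNA has in the falls of genes outside these lists was not tested. Most falls below are given against the day 17 controls only. Against the earlier controls the median was -0.99 for triglyceride synthesis, -0.91 for cholesterol synthesis and uptake and -1.60 for fatty acid synthesis. Of the falls called in these lists on day 17, 9 of 9, 11 of 11 and 18 of 19 were also called against the earlier controls. They were 11 of 12 for insulin signalling and glucose use, 6 of 7 for the citrate cycle and 1 of 2 for progenitors.

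**Figure D2:**
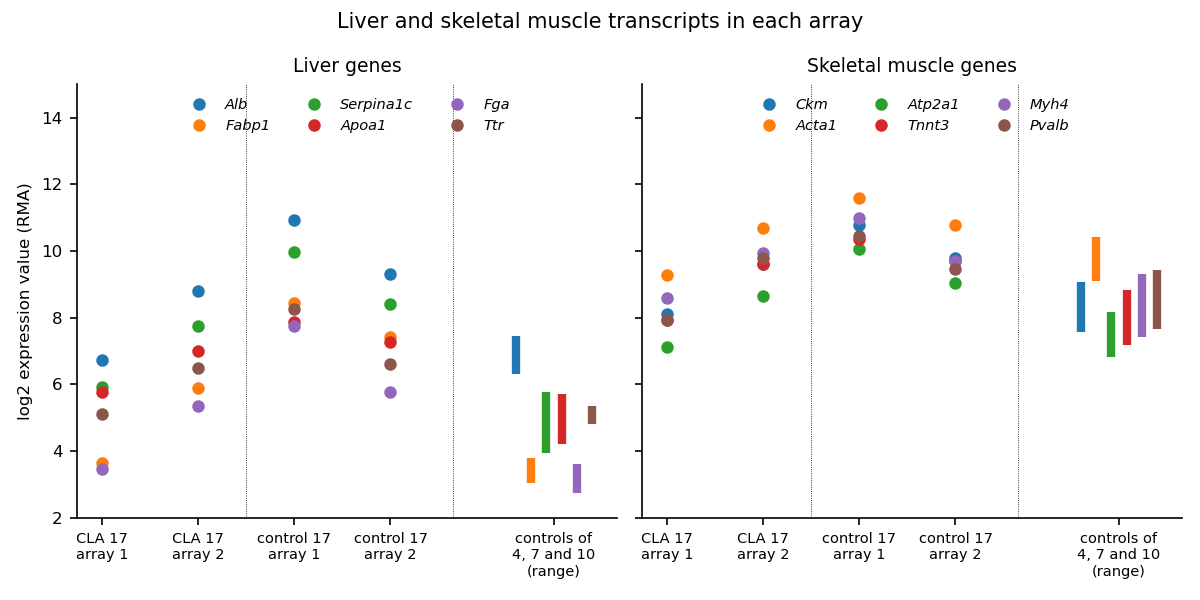
Log2 expression values of 6 liver genes (left) and 6 skeletal muscle genes (right) on the CLA arrays, then the control arrays of day 17, with a bar for the range of the 6 control arrays of days 4, 7 and 10. All 12 genes were lowest on CLA array 1 and highest on control array 1 among the 4 arrays of day 17.

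The 12 largest rises among genes called against both sets of controls were led by genes of macrophages. Mmp12, the macrophage elastase, stood at 11.36 and 11.17 on the CLA arrays, against 3.90 and 3.48 on the control arrays. That is a 191-fold difference, 7.58 ± 0.77 on the log2 scale (SE, adjusted p = 9.64e-07). Rgs1, which shortens G protein signals in leukocytes, stood at 10.63 and 10.64 on the CLA arrays, against 4.28 and 4.38 on the control arrays. No CLA array of these genes came near a control array. Atp6v0d2, a subunit of the proton pump that acidifies lysosomes, rose by 6.02 ± 0.38, and Gpnmb, a glycoprotein of lysosomes in phagocytes, by 5.38 ± 0.34. The other rises of this group lay between 4.50 and 5.80. They were Rnf128, an E3 ubiquitin ligase, Glipr1, Adam8, a metalloproteinase of myeloid cells, Il7r, the interleukin 7 receptor chain, Atf3, a transcription factor of the stress response, Tlr13, an endosomal receptor for bacterial RNA, Stap1, an adaptor protein, and Slc15a3, a peptide and histidine transporter of lysosomes. Glipr1 rose by 5.46, but its other probe set gave 0.76.

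Among the 12 largest falls Eci3, an enoyl-CoA isomerase of fatty acid oxidation, stood at 3.54 and 3.33 on the CLA arrays, against 8.11 and 8.44 on the control arrays. That is a fall of 4.84 ± 0.21 (SE, adjusted p = 3.98e-11) with no overlap. Elovl6, which elongates palmitate, stood at 7.71 and 7.76 on the CLA arrays, against 12.10 and 11.46 on the control arrays. Amy1, an amylase that cleaves starch and glycogen, stood at 7.18 and 7.25 on the CLA arrays, against 11.33 and 11.28 on the control arrays. In both genes the CLA arrays lay far below the control arrays, 16.5-fold lower for Elovl6, and Amy1 fell by 4.09 ± 0.21. Timp4, an inhibitor of metalloproteinases made by adipocytes, fell by 4.54, and Mogat1, a monoacylglycerol acyltransferase, by 4.48. The others were Kcnj15, a potassium channel, Ces1f, a carboxylesterase, Pon1, a paraoxonase, Acsm3, an acyl-CoA synthetase of mitochondria, Clmn, the class I-like H2-Q10 and Cdsn, an adhesion protein, with falls between 3.44 and 4.40. Other probe sets gave differences of -4.16 to -0.38 for Elovl6, -1.24 to -0.36 for Kcnj15 and -1.57 to -0.26 for Clmn. By the rule that chose them, all 24 genes kept their direction against the earlier controls and did not overlap between the diets on day 17.

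**Figure D3:**
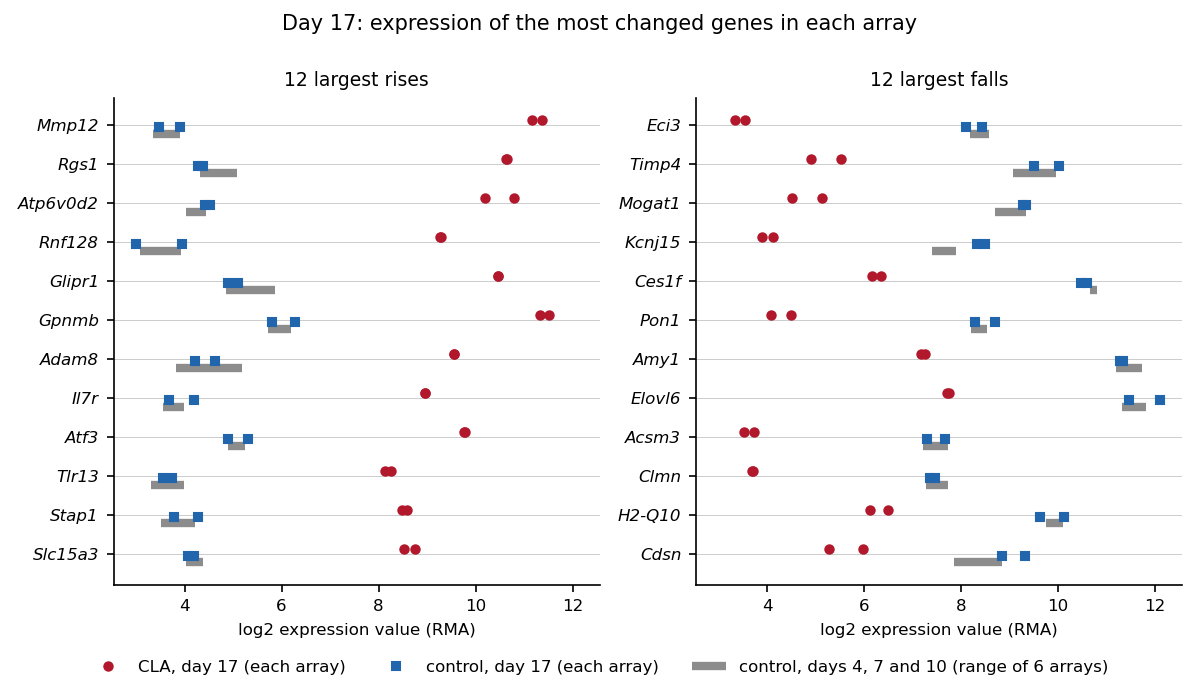
Log2 expression values of the 12 largest rises (left) and 12 largest falls (right) on day 17: circles are the CLA arrays, squares the control arrays, and grey bars the range of the 6 control arrays of days 4, 7 and 10. By the rule that chose the genes, both circles lie on one side of both squares. The circles also lie apart from the grey bar in each gene.

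Most macrophage genes rose. Of 28 macrophage genes 25 were called higher, beside 11.5% of all genes, and the same 25 were called against the earlier controls; the list median was 2.22 and no member fell. Adgre1, a surface protein that marks mouse macrophages, stood at 11.48 and 11.35 on the CLA arrays, against 8.11 and 8.08 on the control arrays. It rose by 3.32 ± 0.26 (SE, adjusted p = 3.91e-08), and Cd68, a lysosomal glycoprotein of macrophages, rose by 3.45 ± 0.40. Ms4a7, Fcgr1, an Fc receptor for antibodies, and Clec7a, a receptor for fungal glucans, rose by 4.38, 4.16 and 4.09. Mrc1, the mannose receptor of resident macrophages, rose by 1.68 and Csf1r, the receptor for colony stimulating factor 1, by 1.26. Cd163, a haemoglobin scavenger receptor, and Cx3cr1, the fractalkine receptor, had uncalled differences of 0.19 and -0.08, and Emilin2 one of 0.60. In a bulk tissue, more cells of a type and more RNA per cell cannot be told apart, and the same holds for fewer cells and less RNA.

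Genes known from lipid-associated macrophages rose in 12 of 18 cases, and 1 fell. Trem2, a lipid receptor of these cells, stood at 8.81 and 9.38 on the CLA arrays, against 4.76 and 5.29 on the control arrays, and rose by 4.07 ± 0.30 (SE, adjusted p = 2.28e-08). Its other probe set gave 0.01. Itgax, the integrin CD11c, rose by 3.93, Slc37a2, a sugar phosphate transporter, by 3.88, and Lgals3, galectin 3, by 2.76. The member that fell was Acp5, tartrate-resistant acid phosphatase, which stood at 8.89 and 8.98 on the CLA arrays, against 11.36 and 11.40 on the control arrays, a fall of 2.44 ± 0.33. Of 22 lysosomal genes 12 rose and none fell, with a median of 0.68. The cathepsins Ctss, Ctsk and Ctsh, which are lysosomal proteases, rose by 3.11, 2.92 and 2.22, while the membrane protein Lamp1 had an uncalled difference of 0.11. Lipa, the acid lipase that frees cholesterol and fatty acids in lysosomes, stood at 10.92 and 10.54 on the CLA arrays, against 7.70 and 7.85 on the control arrays.

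Antigen presentation by MHC class II showed 8 rises among 11 genes and no fall, with a median of 1.78. H2-Aa, an alpha chain of the class II molecule, stood at 13.02 and 12.98 on the CLA arrays, against 10.93 and 11.14 on the control arrays, and Cd74, the invariant chain, rose by 1.84 ± 0.47. Cd83, a surface protein of antigen-presenting cells, rose by 3.90. Of 13 T cell genes Il7r alone was called, beside 11.5% of all genes called higher, and Cd3e, a chain of the T cell receptor complex, stood at 5.21 and 5.37 on the CLA arrays, against 5.27 and 5.34 on the control arrays. Of 12 B and plasma cell genes 4 rose, namely Blnk, an adaptor also found in myeloid cells, Sdc1, Cd22 and Cd79b, while the list median was 0.11. Among 11 neutrophil genes Csf3r, the receptor for granulocyte colony stimulating factor, was called, with a rise of 0.82, a share near that of all genes.

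Mast cell genes rose in 5 of 9 cases, with a median of 1.29. Cpa3, carboxypeptidase A of mast cell granules, stood at 9.20 and 9.11 on the CLA arrays, against 6.93 and 6.60 on the control arrays, and rose by 2.39 ± 0.28 (SE, adjusted p = 4.13e-06). Cma1, the protease chymase, stood at 9.04 and 8.96 on the CLA arrays, against 6.88 on both control arrays, and rose by 2.12 ± 0.21. Tpsb2, a tryptase, rose by 2.04, and its other probe set gave -0.08. Mcpt4, another granule protease, rose by 1.53 and Fcer1a, the IgE receptor chain, by 1.29. Kit, the receptor for stem cell factor, and Hdc, which makes histamine, had uncalled differences of 0.53 and 0.06.

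Of 27 cytokines and chemokines 14 rose and none fell, with a median of 0.99. Ccl8, a chemokine for monocytes and other leukocytes, stood at 10.55 and 10.24 on the CLA arrays, against 6.60 and 7.22 on the control arrays, and rose by 3.48 ± 0.59 (SE, adjusted p = 0.000246). Ccl2, the monocyte chemokine, rose by 3.26 and Il1rn, the interleukin 1 receptor antagonist, by 2.87. Il6, interleukin 6, stood at 3.17 and 2.91 on the CLA arrays, against 2.96 and 2.70 on the control arrays, and was not called, nor was Tnf, tumour necrosis factor, at 0.16. Of 15 interferon-response genes 10 rose, among them Oas1a and Oasl2 of the oligoadenylate synthetase family with 2.10 and 2.02, and Cxcl9, an interferon-induced chemokine, fell by 0.86. Among 10 acute phase proteins made in fat 3 rose and 3 fell, beside 11.5% and 8.78% of all genes. Ptx3, a pentraxin, Lcn2, lipocalin 2, and Saa3, serum amyloid A3, rose by 4.42, 3.56 and 1.68, while Orm1, orosomucoid, Serpina3n, a protease inhibitor, and Steap4, a metalloreductase, fell by 2.70, 2.06 and 0.94.

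Metalloproteinases and their inhibitors showed 12 rises and 1 fall among 21 genes, with a median of 0.82. Mmp3, stromelysin 1, stood at 10.21 and 10.08 on the CLA arrays, against 5.86 and 6.39 on the control arrays, a 16.2-fold difference (adjusted p = 6.59e-07). Mmp13, a collagenase, stood at 4.78 and 4.75 on the CLA arrays, against 2.47 and 2.46 on the control arrays. Timp1, the inhibitor of several metalloproteinases, rose by 3.00 ± 0.75, Mmp14, a membrane-bound enzyme, by 2.00 and Mmp2, a gelatinase, by 1.92. The fall was that of Timp4, given above. Mmp7, matrilysin, stood at 4.08 and 4.04 on the CLA arrays, against 4.10 and 4.17 on the control arrays, and Mmp10, stromelysin 2, at 3.93 and 4.33 on the CLA arrays, against 4.14 and 4.16 on the control arrays.

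Immediate early genes rose in 5 of 16 cases, beside 11.5% of all genes, with a median of 0.99. Several of them encode subunits of the transcription factor AP-1. Fos, an AP-1 subunit, stood at 9.58 and 9.51 on the CLA arrays, against 6.08 and 5.91 on the control arrays, and rose by 3.55 ± 0.57. Junb and Fosl1, also AP-1 subunits, rose by 2.05 and 1.43, and Egr2 and Egr1, zinc finger factors, by 4.38 and 1.39. Because AP-1 subunits and metalloproteinases are both among the rises, the 250 bases before each RefSeq gene start (GRCm38.p6) were searched for the AP-1 motif TGANTCA, which reads the same on both strands. The motif was found in 6.75% of the 32851 promoter windows of all genes. It was found in 27.8% of the 18 windows of the metalloproteinase and inhibitor list, which belong to 15 of its 21 genes. The other genes of the list had no window. The motif was held by 5 genes, all on chromosome 9 and on the plus strand. Of the 12 list genes that rose, 3 are among them, but the 12 include Mmp2, which had no window and was not searched. The 120 bases before the start are shown for the 5 genes with the motif, printed in capitals, because 3 of them rose and 2 were not called.
Mmp12: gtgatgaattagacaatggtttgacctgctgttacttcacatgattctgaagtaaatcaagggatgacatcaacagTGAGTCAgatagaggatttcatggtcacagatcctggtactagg
Mmp3: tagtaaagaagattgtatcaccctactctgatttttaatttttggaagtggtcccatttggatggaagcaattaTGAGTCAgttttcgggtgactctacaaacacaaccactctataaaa
Mmp13: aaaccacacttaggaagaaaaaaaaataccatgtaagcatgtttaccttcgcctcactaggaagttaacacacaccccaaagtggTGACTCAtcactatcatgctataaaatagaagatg
Mmp10: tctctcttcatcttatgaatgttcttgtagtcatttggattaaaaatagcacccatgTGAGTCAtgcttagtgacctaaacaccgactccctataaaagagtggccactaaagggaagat
Mmp7: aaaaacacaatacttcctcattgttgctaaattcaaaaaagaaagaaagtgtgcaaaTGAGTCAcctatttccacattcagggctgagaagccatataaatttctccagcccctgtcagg
The windows are chr9:7347254-7347373 for Mmp12, at the downstream one of its annotated starts, chr9:7445702-7445821 for Mmp3, chr9:7272394-7272513 for Mmp13, chr9:7502222-7502341 for Mmp10 and chr9:7691970-7692089 for Mmp7. The first base of the motif lies at -44 in Mmp12, -46 in Mmp3 and -35 in Mmp13, which differed by 7.58, 4.02 and 2.30 between the diets. It lies at -63 in both Mmp10 and Mmp7, which differed by -0.02 and -0.07. These positions count from the annotated starts, which may not lie at the same point of each promoter. The letters tataaa stand at the end of the Mmp3 window but further from the start in Mmp13, Mmp10 and Mmp7. The positions can therefore not be compared between genes. A match describes these letters and was not tested as a binding site. The shares and positions of the motif were not tested either, and the 5 genes lie near each other on chromosome 9. Whether AP-1 has a part in these rises was not tested.

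Extracellular matrix genes rose in 16 of 28 cases and none fell, with a median of 0.78. Fewer were called with 1 array of day 17 left out, where the median lay between 0.77 and 0.92. Lum, the proteoglycan lumican, stood at 12.44 and 12.28 on the CLA arrays, against 9.97 and 10.46 on the control arrays. Postn, periostin, stood at 12.04 and 12.14 on the CLA arrays, against 9.96 and 9.98 on the control arrays, and rose by 2.12 ± 0.14 (SE, adjusted p = 4.02e-09). Thbs2, thrombospondin 2, rose by 1.86, Lox, which cross-links collagen, by 1.19 with its other probe sets at 0.06 to 0.44, and Col3a1, a fibrillar collagen chain, by 0.66. Col1a1, a chain of type I collagen, stood at 11.62 and 11.26 on the CLA arrays, against 10.45 and 10.08 on the control arrays, and was not called (adjusted p = 0.261). Among 13 progenitor genes, beside 11.5% of all genes called higher and 8.78% lower, the growth factor receptors Pdgfra and Pdgfrb rose by 1.49 and 1.06. Zfp423, a transcription factor of preadipocytes, and Ccn5, a secreted matricellular protein, fell by 1.38 and 0.48. The 2 progenitor falls numbered 0 without CLA replicate 2 and 0 without control replicate 1, where Zfp423 had adjusted p = 0.0625 and 0.056 by limma, and the 2 rises numbered 1 without control replicate 1.

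Endothelial genes were called lower in 5 of 15 cases and higher in 1, beside 8.78% and 11.5% of all genes, with a median of -0.75. Cldn5, a tight junction protein, stood at 6.66 and 6.65 on the CLA arrays, against 8.56 and 8.06 on the control arrays. Gpihbp1, which carries lipoprotein lipase to the capillary lumen, fell by 1.62 and Kdr, a receptor for vascular endothelial growth factor, by 1.41, and Vegfa, its ligand, fell by 1.40. Plvap, a protein of endothelial fenestrae, rose by 0.87 (adjusted p = 0.0296), a call lost when arrays were centred on their medians. The 5 endothelial falls numbered 3 without control replicate 1. Of 11 mesothelial genes Msln, mesothelin, was called lower, by 0.69, a share near the 8.78% of all genes. Its difference lay between -0.84 and -0.56 with 1 array of day 17 left out. Of 5 erythroid genes Alas2, which starts haem synthesis, was called lower, by 1.75.

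Cell cycle genes rose in 25 of 29 cases and none fell, with a median of 1.44. Fewer were called with 1 array of day 17 left out, where the median lay between 1.29 and 1.52. Mki67, the proliferation antigen, stood at 8.76 and 8.36 on the CLA arrays, against 5.92 and 5.53 on the control arrays, and rose by 2.84 ± 0.52 (SE, adjusted p = 0.000513). Rrm2, a subunit of ribonucleotide reductase, Birc5, survivin, and Cdk1, the mitotic kinase, rose by 3.00, 2.99 and 2.85. Foxm1, a transcription factor of mitosis, had an uncalled difference of -0.15.

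**Figure D4:**
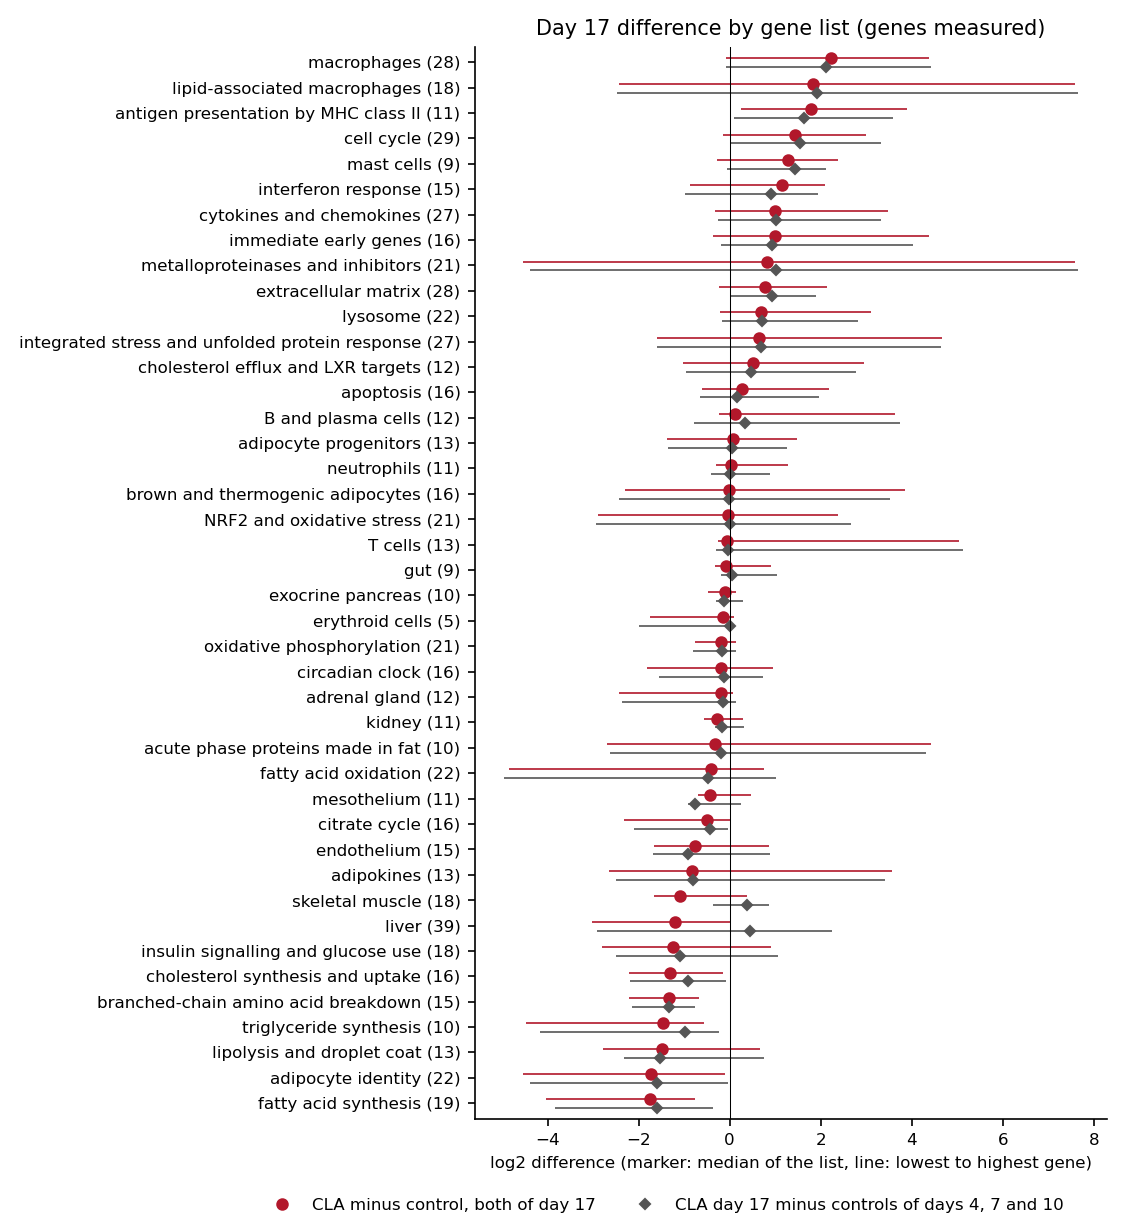
Median log2 difference (marker) and the lowest to highest gene (line) of each of 42 gene lists, for CLA minus control on day 17 (circles) and for the same CLA arrays minus the controls of days 4, 7 and 10 (diamonds). Liver and skeletal muscle have medians of -1.20 and -1.09 for the circles and of 0.45 and 0.38 for the diamonds (the last is -0.32 without CLA replicate 2), while the macrophage list is at 2.22 and fatty acid synthesis at -1.74 for the circles.

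Adipocyte genes fell in 18 of 22 cases, beside 8.78% of all genes, and the same 18 fell against the earlier controls; the median was -1.72 and none rose. Lep, the hormone leptin, stood at 7.90 and 8.23 on the CLA arrays, against 10.66 and 10.64 on the control arrays, and fell by 2.58 ± 0.32 (SE, adjusted p = 8.21e-06). Pparg and Cebpa, the transcription factors of adipocyte differentiation, fell by 0.70 and 1.05. The Pparg call was lost without CLA replicate 1 or control replicate 2, with a difference of -0.64 in both cases. That of Cebpa was lost without CLA replicate 2 (-0.82) or control replicate 1 (-0.88). Adipoq fell by 0.82 ± 0.14, and Retn, resistin, by 1.73. The 4 members without a call were Fabp4 at -0.10, Lpl, lipoprotein lipase, at -0.22, Cd36, a fatty acid transporter, at -0.23 and Sncg, gamma synuclein, at -0.54. For Fabp4, whose values lie near the top of the range, the other probe sets gave -2.06 to -0.17. Of 13 adipokines 6 fell and 2 rose, beside 8.78% and 11.5% of all genes. Rbp4, retinol binding protein 4, fell by 2.64, and the 2 rises were Lcn2 and Fgf21.

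All 19 measured genes of fatty acid synthesis fell, with a median of -1.74, and 18 of them also fell against the earlier controls. The exception was Fads2, a desaturase, with -0.81 against the day 17 controls and -0.37 against the earlier ones. Acacb, the mitochondrial acetyl-CoA carboxylase, stood at 7.19 and 7.17 on the CLA arrays, against 10.53 and 10.22 on the control arrays, a fall of 3.20 that its other probe set, with -0.09, did not show. Its cytosolic counterpart Acaca fell by 2.70 ± 0.28 and Fasn, fatty acid synthase, by 1.96 ± 0.30. Acss2, which activates acetate, fell by 3.28, with its other probe sets between -2.97 and -0.56, and Srebf1, the transcription factor of lipid synthesis, by 1.74. Scd1, a desaturase near the top of the signal range, fell by 0.90, and its other probe set gave -2.33.

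Triglyceride synthesis fell in 9 of 10 genes, with a median of -1.46. Dgat2, which adds the last fatty acid, stood at 11.44 and 10.89 on the CLA arrays, against 13.04 and 12.78 on the control arrays. Pck1, which supplies the glycerol backbone in fat, fell by 2.48, with its other probe sets between -3.68 and 0.02. Lipolysis and droplet coat genes fell in 7 of 13 cases and 1 rose. Pnpla2, the triglyceride lipase, fell by 1.90, Lipe, hormone-sensitive lipase, by 2.77 with its other probe set at -0.10, and Plin4, a perilipin, by 2.36. Npr1, the receptor for natriuretic peptides, rose by 0.67, and Plin2, a perilipin found in many cells, had an uncalled difference of 0.22.

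Genes of cholesterol synthesis and uptake fell in 11 of 16 cases, with a median of -1.32. Fdft1, squalene synthase, stood at 7.49 and 7.24 on the CLA arrays, against 9.59 and 9.58 on the control arrays, and Idi1, an isomerase of the pathway, fell by 2.12 ± 0.16. Of 12 genes of cholesterol efflux and targets of the receptor LXR 4 rose, namely Lipa, Abcg1 and Abca1, the last 2 being sterol exporters, and Npc1, a cholesterol transporter of lysosomes. Scarb1, a lipoprotein receptor, fell by 1.02. Of all genes 11.5% were called higher and 8.78% lower. The 4 rises numbered 2 without CLA replicate 1, 1 without CLA replicate 2 and 2 without either control array. Abca1 rose by 0.57, but its other probe sets gave -0.09 to -0.03.

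Insulin signalling and glucose use showed 12 falls and 1 rise among 18 genes, with a median of -1.24. Slc2a4, the insulin-regulated glucose transporter, stood at 7.82 and 7.65 on the CLA arrays, against 10.01 and 9.68 on the control arrays, and fell by 2.11 ± 0.37 (SE, adjusted p = 0.000347). Gys2, glycogen synthase 2, fell by 2.80, Hk2, a hexokinase, by 1.84 and Insr, the insulin receptor, by 1.25. The rise was that of Akt1, a kinase downstream of insulin, by 0.78, while its relative Akt2 had an uncalled difference of -0.97. Branched-chain amino acid breakdown fell in 13 of 15 genes, with a median of -1.34. Ivd, isovaleryl-CoA dehydrogenase, stood at 7.66 and 7.64 on the CLA arrays, against 9.87 and 9.88 on the control arrays, and fell by 2.22 ± 0.27.

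Of 16 citrate cycle genes 7 fell, beside 8.78% of all genes, with a median of -0.50, led by Pcx, pyruvate carboxylase, with a fall of 2.31, and Pdha1, a subunit of pyruvate dehydrogenase, with a fall of 1.02. Of 21 oxidative phosphorylation genes 2 fell, the dehydrogenase subunits Sdha and Ndufs1 with 0.76 and 0.48, a share near that of all genes, and the median was -0.18. These 2 falls numbered 1 without CLA replicate 1, CLA replicate 2 or control replicate 1, and the other probe sets of Sdha gave -0.78 to 0.09. Fatty acid oxidation fell in 7 of 22 genes and rose in 2, beside 8.78% and 11.5% of all genes. Eci3, Ehhadh, a peroxisomal enzyme, and Eci1, an isomerase, fell by 4.84, 1.94 and 1.12, while Acadm, medium-chain acyl-CoA dehydrogenase, had an uncalled difference of -0.34. Cpt1a, which passes fatty acids to mitochondria, and Acot1, a thioesterase, rose by 0.74 and 0.76. These 2 rises numbered 0 without CLA replicate 1 and 0 without control replicate 1, where Acot1 had adjusted p = 0.0545 and 0.11 by limma. The 7 falls numbered 4 without CLA replicate 2, and the Cpt1a call was lost when arrays were centred on their medians (adjusted p = 0.0566).

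Thermogenic genes moved in both directions. Ucp1, the uncoupling protein of brown fat, stood at 10.13 and 10.34 on the CLA arrays, against 6.62 and 6.14 on the day 17 control arrays and 5.56 to 7.83 on the earlier ones. It rose 14.5-fold, by 3.86 ± 0.57 on the log2 scale (SE, adjusted p = 5.58e-05). Ucp3, its relative of muscle and fat, stood at 4.72 and 4.79 on the CLA arrays, against 7.16 and 6.94 on the control arrays, and fell by 2.30 ± 0.22. Of the 16 genes 5 rose and 2 fell, beside 11.5% and 8.78% of all genes, with a median of -0.02. The other rises were Fgf21, a hormone of fasting and stress, Elovl3, a fatty acid elongase, Cox7a1, a subunit of cytochrome oxidase, and Cpt1a, and the other fall was Kcnk3, a potassium channel, with 1.02. Cidea, a droplet protein of brown fat, Dio2, which activates thyroid hormone, Ppargc1a, a coactivator, and Prdm16, a regulator of brown fat, had uncalled differences of -0.89, -0.11, 0.06 and 0.08. The 5 rises numbered 3 without control replicate 2, and the 2 falls numbered 1 without control replicate 1 and 1 without control replicate 2.

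Integrated stress and unfolded protein response genes rose in 13 of 27 cases and fell in 4, with a median of 0.65. Of all genes 11.5% were called higher and 8.78% lower. Atf3 stood at 9.78 and 9.75 on the CLA arrays, against 4.90 and 5.31 on the control arrays, and rose by 4.66 ± 0.36. Trib3, a pseudokinase, Ddit3, the factor CHOP, Atf4, the central factor of the response, and Hspa5, a chaperone of the endoplasmic reticulum, rose by 2.10, 1.69, 1.03 and 1.00, but the other probe set of Ddit3 gave 0.05. The falls were Phgdh and Psat1 of serine synthesis, Asns, asparagine synthetase, and Vldlr, a lipoprotein receptor, by 1.60, 0.56, 1.18 and 1.00. Phgdh, Psat1 and Asns are known targets of Atf4. Without CLA replicate 1 the 13 rises numbered 8. Of 21 genes of NRF2 and oxidative stress 4 rose and 4 fell, beside 11.5% and 8.78% of all genes. Hmox1, haem oxygenase 1, rose by 2.38 and Gsta3, a glutathione transferase, fell by 2.90, and the counts were 2 and 2 without CLA replicate 1. Without control replicate 2 the rises numbered 2. Of 16 apoptosis genes 4 rose, with Bcl2l11 and Pmaip1, which promote cell death, at 2.19 and 2.15 and Mcl1 and Birc3, which oppose it, at 1.14 and 1.09, and Fas, a death receptor, fell by 0.60. The other probe set of Birc3 gave -0.22, and the fall of Fas was not called without CLA replicate 1 or without control replicate 2. Of 16 clock genes Nr1d1 and Cry2, both repressors, fell by 1.82 and 0.85, and Nfil3, also a repressor, rose by 0.96. These counts are near the shares of all genes, 8.78% called lower and 11.5% called higher. The 2 clock falls numbered 1 without CLA replicate 2 or control replicate 2, and Nfil3 was called in neither case nor without CLA replicate 1.

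The 6 largest rises among genes called against the day 17 controls but not against the earlier ones were smaller. Klf10, a zinc finger factor, stood at 8.61 and 8.01 on the CLA arrays, against 7.22 and 6.66 on the day 17 control arrays and 7.22 to 7.96 on the earlier ones. It rose by 1.37 (adjusted p = 0.0224), with 0.88 against the earlier controls (adjusted p = 0.0657). The others were Zfp521, Rsl1, Casp8ap2, Npat and Rfc4, with rises between 1.18 and 1.30. Rsl1 had adjusted p = 0.0494 by limma and lost its call without any 1 of the 4 arrays of day 17, with centring, with quantile normalisation, with either other choice of probe set and with trend and robust moderation. Casp8ap2 and Rfc4 also lost their calls without any 1 of these 4 arrays, and Casp8ap2 with centring (adjusted p = 0.056) and quantile normalisation (adjusted p = 0.0668). Klf10 and Zfp521 lost theirs without CLA replicate 1 and without control replicate 2, and Npat without CLA replicate 1 and without either control array. The other probe sets of Npat and Zfp521 gave -0.16 and 0.26.

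The difference of day 17 was then set against the mean difference of days 7 and 10, which share no array with it. A larger difference on day 17 was called for 5 genes (0.0275% of those tested) and a lower one for 3 (0.0165%), 8 genes (0.044%) together. Cnmd, chondromodulin, a protein of cartilage and tendon that inhibits vessel growth, stood at 6.77 and 7.35 on the CLA arrays, against 3.63 and 4.31 on the day 17 control arrays. It differed by 3.09 ± 0.24 on day 17, 1.14 on day 10 and 0.44 on day 7, and the difference between day 17 and days 7 and 10 was 2.30 ± 0.30 (SE, adjusted p = 0.00286). Fbln7, fibulin 7 of the extracellular matrix, stood at 7.15 and 7.18 on the CLA arrays, against 3.79 and 3.52 on the control arrays. It differed by 3.51 ± 0.15 on day 17, 2.52 on day 10 and 1.49 on day 7. Neither gene overlapped between the diets on day 17, which held for 63.5% of all genes. Slit2, a secreted ligand of Robo receptors, Srpx, a sushi-repeat protein, and Nmb, the peptide neuromedin B, differed by 2.14, 2.70 and 1.20 on day 17, and by 0.67, 1.56 and 0.44 on day 10. For Slit2 the other probe sets gave -0.09 to 0.60 on day 17.

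The 3 genes with a lower difference on day 17 were Aadac, a deacetylase, Fbp1 and Cyp4a12a, a cytochrome P450, all expressed in liver. All 3 were called higher in the day 17 controls than in the earlier controls, by 1.15, 2.89 and 1.13. Aadac was also higher in CLA on days 7 and 10, by 1.52 (adjusted p = 0.000171) and 1.38 (adjusted p = 0.000425), with an uncalled -0.68 on day 17. Fbp1 differed by -0.08 on day 7 and 0.46 on day 10, and Cyp4a12a by 0.09 and 0.03, none of them called, and on day 17 these genes fell by 2.16 and 1.00. The count of 8 was 2 without CLA day 17 replicate 1, 34 without control day 17 replicate 1 and 18 without control day 17 replicate 2. It was 5 without control day 10 replicate 2, 5 without CLA day 7 replicate 1 and 14 without control day 2 replicate 1. The mast cell gene Cma1 had 2.12 on day 17, 1.28 on day 10 and 1.12 on day 7, and Mmp3 had 4.02, 2.63 and 1.78 on these days, but neither difference between days was called (adjusted p = 0.534 and 0.513).

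**Figure D5:**
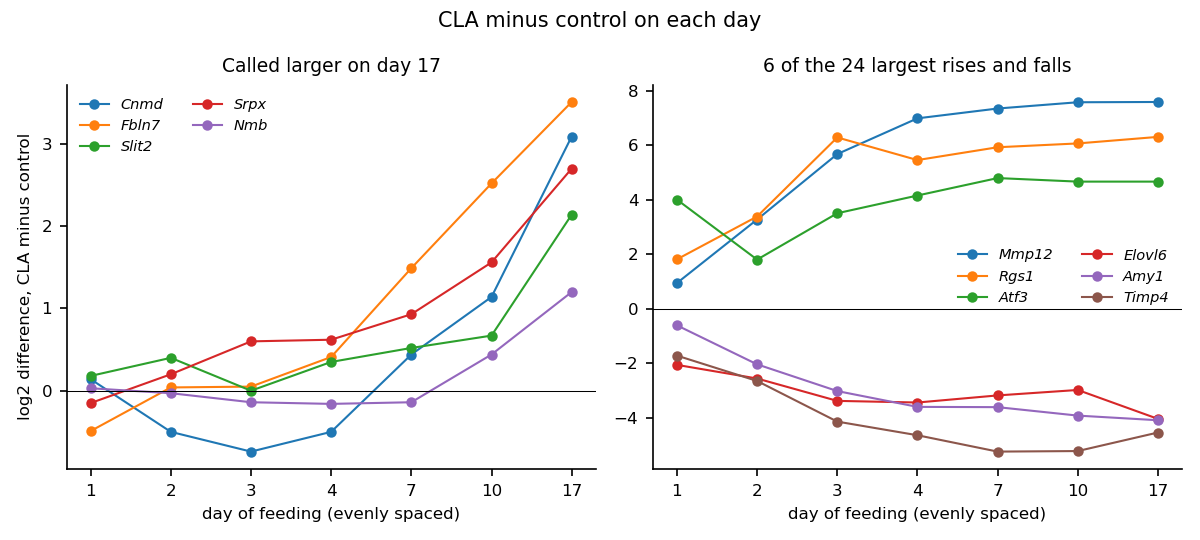
Log2 difference of CLA minus control on each day of feeding, for the 5 genes called with a larger difference on day 17 than on days 7 and 10 (left) and for 6 of the 24 largest rises and falls of day 17 (right). On the left, Fbln7 reaches 3.51 and Cnmd 3.09 on day 17, while on the right Mmp12 stands at 7.34 on day 7, 7.57 on day 10 and 7.58 on day 17.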

How the data were processed

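The authors deposited log2 expression values for 45101 probe sets on 28 arrays, made with RMA per the submitters' processing notes, which name no version; RMA corrects background, normalises arrays to each other and summarises the probes of a set. The array design and genome build behind the deposited values are not given in the sources used here. The 64 array controls were left out. A table of the platform's annotation names 1 gene for 34945 probe sets, several for 932 and none for 9160, and 34741 of the first were matched by gene ID to the reference gene table (GRCm38.p6), used for names. Each of the 18193 genes is represented by its brightest probe set, and 9010 genes have more than 1.

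The values were tested as deposited, with no filter on dim genes, in limma 3.58.1 (R 4.3.3) with lmFit and eBayes. The model had 14 groups of diet and day, 28 arrays and 14 residual degrees of freedom, so the spread is pooled over all groups. It gave 4 contrasts: CLA minus control on day 17, CLA of day 17 minus the controls of days 4, 7 and 10, control of day 17 minus those controls, and the day 17 difference minus the mean difference of days 7 and 10. Tests were two-sided with Benjamini-Hochberg adjustment over all genes, and every adjusted p is from limma. On simulated data of this size with 200 changed genes, 96% of changes of -2 and 94% of changes of 2 were recovered, and 76% and 60% of changes of -1 and 1.

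Of 736 genes in 42 textbook lists 676 were measured, and lists were described by counts and medians with no test of the list. The lists, the comparison and the controls used in it were chosen with earlier results of these data known. Genes were named by rule: the 12 largest rises and falls called against both sets of controls without overlap, the 6 largest called against the day 17 controls only, the 6 largest differences between day 17 and days 7 and 10 among genes not called in the day 17 controls, up to 5 per list called against both sets, and a fixed set, of which Plin1, Spp1 and Mup1 are not analysed here. Other genes of the lists are named as examples chosen after their values were seen. The alternatives tried were array centring, quantile normalisation, other probe sets per gene, a filter on dim genes, other variance moderation, a stricter threshold, other sets of arrays, replicate blocks and leaving out each array. The replicate numbers were not taken as pairs. Their check gave correlations of the deviations of same-numbered arrays between 0.098 and 0.57 over the 7 days. Promoter sequences are from RefSeq (GRCm38.p6). Plots were made in Python 3.11.15 with matplotlib 3.10.9.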

Additional observations from a re-analysis of the deposited data

Results flagged for a closer look

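The difference between the diets on day 17 departed from its mean on days 7 and 10 for 8 genes in limma's test of that contrast, 5 upward and 3 downward. The upward ones were Cnmd by 2.30 (adjusted p = 0.00286), Fbln7 by 1.51 (adjusted p = 0.00286), Slit2 by 1.55 (adjusted p = 0.0138), Srpx by 1.46 (adjusted p = 0.0259) and Nmb by 1.06 (adjusted p = 0.0335), all on the log2 scale. For these 5 genes the CLA arrays of day 17 lay above both day 17 control arrays, as for 30.1% of all genes. They also lay above all 6 control arrays of days 4, 7 and 10. The genes were chosen by their day 17 difference, so this is a description and not a further test. The downward ones were Fbp1 by -2.35 (adjusted p = 0.0153), Aadac by -2.13 (adjusted p = 0.00706) and Cyp4a12a by -1.06 (adjusted p = 0.0138). For Aadac the CLA arrays stood at 3.81 and 4.10 and the day 17 control arrays at 5.11 and 4.17, while the 6 earlier control arrays lay between 3.27 and 3.70. Cyp4a12a stood at 2.90 and 2.92 on the CLA arrays and at 3.94 and 3.87 on the day 17 control arrays, with the earlier controls between 2.56 and 2.99. Aadac was higher in CLA by 1.52 on day 7 and by 1.38 on day 10 (adjusted p = 0.000171 and 0.000425). Of the 23 other settings in which they were tested, Cnmd and Fbln7 kept their call in 23, Aadac in 22, Cyp4a12a in 20, Slit2 in 19, Fbp1 in 18 and Nmb in 7. Srpx kept it in 13 of 24. The setting that left out dim genes tested only Srpx of these 8 and called 0 genes, with 295 at an unadjusted p under 0.05.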

How the results depend on the processing

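The 3688 calls of day 17 numbered 2428 at an adjusted p under 0.01 and 2352 to 3837 with 1 array left out. The 4468 calls against the earlier controls numbered 2707 without CLA replicate 1, 2860 without CLA replicate 2 and 4532 at most. The 56 calls of the day 17 controls against the earlier ones numbered 45 to 66 with 1 array left out, and only 16 of the 66 without control replicate 1 were among the 56. Without genes dimmer than the median limma called 0 there, with 138 at an unadjusted p under 0.05, and 0 for day 17 against days 7 and 10, with 295. That filter kept only 2 of the 39 liver genes, so most liver genes were not tested in this setting. The 8 calls of day 17 against days 7 and 10 numbered 14 with a common replicate block, 15 with trend and robust moderation, 3 at an adjusted p under 0.01, 241 against the mean of all 6 earlier days, 20 with the arrays of days 1 and 2 left out, a setting chosen after seeing the data, and 2 to 34 with 1 array left out. With the replicate number as a block within each day the 4 contrasts gave 5157, 5791, 57 and 9 calls, and with a common block 4379, 5083, 65 and 14. The numbers share no stated litter or batch, so this block is given here only. Quantile normalisation split the day 17 calls into 1878 higher and 1923 lower. Abca1 changed sign with its most variable probe set, to -0.09 (limma adjusted p = 0.944). Timp1, Cd74, Lipe, Hmox1 and Saa3 were among the genes that lost their call without 1 of the day 17 arrays, with their sign kept. Over the named genes and these settings, 7156 values kept their side of the threshold, 253 lost a call and 21 gained one. The 7156 include values uncalled in both settings, whatever their sign. Of the list medians 1449 moved by less than the spread between arrays and 63 by more. The cause of these changes was not tested. The values carry no detection call, so differences of dim genes cannot be set against background.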

Other observations

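Beyond the liver list, the 55 genes that were higher in the day 17 controls than in the earlier controls held other genes of hepatocytes. Bhmt stood at 3.95 and 5.57 on the CLA arrays and at 7.27 and 6.30 on the day 17 control arrays, with the earlier controls between 3.29 and 4.04. Saa1, a serum amyloid of the acute phase, stood at 3.53 and 3.90 on the CLA arrays and at 5.67 and 5.19 on the day 17 control arrays, with the earlier controls between 3.12 and 3.63. Slc10a1, the bile acid importer of hepatocytes, stood at 2.94 and 3.44 on the CLA arrays and at 4.67 and 3.80 on the day 17 control arrays, with the earlier controls between 2.83 and 3.28. In each of the 3 genes both day 17 control arrays lay above all earlier controls. Clec4b1, the only gene called lower in the day 17 controls, was among the genes that rose with CLA. It stood at 9.35 and 9.58 on the CLA arrays, against 5.33 and 5.21 on the day 17 control arrays and 5.99 to 6.52 on the earlier ones. These genes were chosen after their values were seen.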
